A study of Ovis aries with 36 samples.

Results

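Semimembranosus (SM) is a hamstring of the inner and rear thigh. It extends the hip and lies next to the Adductor (AD). The SM group was taken from the muscle label and held 4 of the 36 libraries of the series, SM1 to SM4, 1 from each of 4 unrelated Poll Dorset cross-bred lambs. It was compared with the mean of the other 8 muscles of the same animals, which were AD, Gluteobiceps (GB), Longissimus lumborum (LL), Gluteus medius (GM), Psoas major (PM), Supraspinatus (SS), Rectus femoris (RF) and Semitendinosus (ST). All were male lambs from different flocks, raised on grasslands and given soy and sorghum supplements after weaning. They were slaughtered at 14 months and 67 to 72 kg, and no group was treated. Each library came from 1 site in the superficial middle of a muscle, and deeper parts, which can differ in fibre type, were not sampled.

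Skeletal muscles are mosaics of slow and fast fibres. Slow fibres use their own troponins, myosin light chains and calcium pump and burn fuel with oxygen, whereas fast fibres contract and fatigue sooner and rely more on glycogen. Muscles also keep a record of where in the body they formed, in transcription factors such as the HOX genes, whose set differs between the forelimb, trunk and hindlimb.

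Expression was measured by RNA-Seq as whole-number counts per assembled locus of the sheep genome Oar_v3.1, and is given as CPM, the count scaled to the TMM-normalised library size. Means carry the SD between the 4 animals, and the other 8 muscles were first averaged within each animal. A log2FC is the fitted SM level minus the mean of the 8 others on a log2 scale, its SE comes from the 4 within-animal differences, and each FDR comes from the edgeR quasi-likelihood test over all 12461 loci tested. A locus was called at an FDR of at most 0.01 with an absolute log2FC above 1. The files give Ensembl identifiers but no symbols, so gene names follow only from positions in the study's gene tables, which list genes that differed between muscles in these same libraries. Counts over the paired genes are therefore no independent evidence, and they cannot be read against the share of all loci. Of the 632 symbols in 17 gene lists, 25 could be paired with 1 tested locus, and 11 lists, among them those for fat, vessel, nerve, matrix and blood cells, had no paired member and were not analysed here. The slow troponins TNNT1 and TNNC1 reached at least 44.3 and 60.9 CPM in each SM library, so the labelled tissue expressed contractile genes throughout.

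The SM libraries held 4407709 to 6360548 counts, but 70.6% to 78.3% of them came from 4 short loci that carry no Ensembl gene, against 65.7% to 75.1% in the other muscles. Only 1009232 to 1715239 counts per SM library were left for all other loci. SM1 and SM3 stood apart, with the lowest TMM factors of the 36 libraries (0.666 and 0.682) and the largest shares on those 4 loci (77.1% and 78.3%), whereas SM2 and SM4 had factors of 1.22 and 0.995. At these depths 3 counts corresponded to 0.425 to 1.02 CPM in SM, and a lower level could not be told from 0. That floor covers counting error only.

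SM differed from the mean of the other muscles at 60 of 12461 loci (0.482%), 23 of them higher (0.185%) and 37 lower (0.297%). Of all loci tested, 74.6% carried an Ensembl gene. Of the loci called higher, 19 of 23 did, close to that share, and SM had the highest mean of the 9 muscles at 17 of them. Of the loci called lower, 34 of 37 had no Ensembl gene, and SM had the lowest mean at all 37. The difference had the same sign in all 4 animals at 58 of the 60. These loci were called on the same 4 animals, so their signs and the ranks of their SM means are no independent evidence. By the FDR alone, without the fold threshold, 280 loci passed (2.25%), with 193 higher (1.55%) and 87 lower (0.698%) in SM. Without SM1 and SM3, a comparison chosen after the data had been seen, 35 loci were called higher and 2 lower. It had fewer samples and tested 13970 loci, and it kept 11 of the 23 higher calls and 0 of the 37 lower ones, although all 60 kept their sign.

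**Figure D1:**
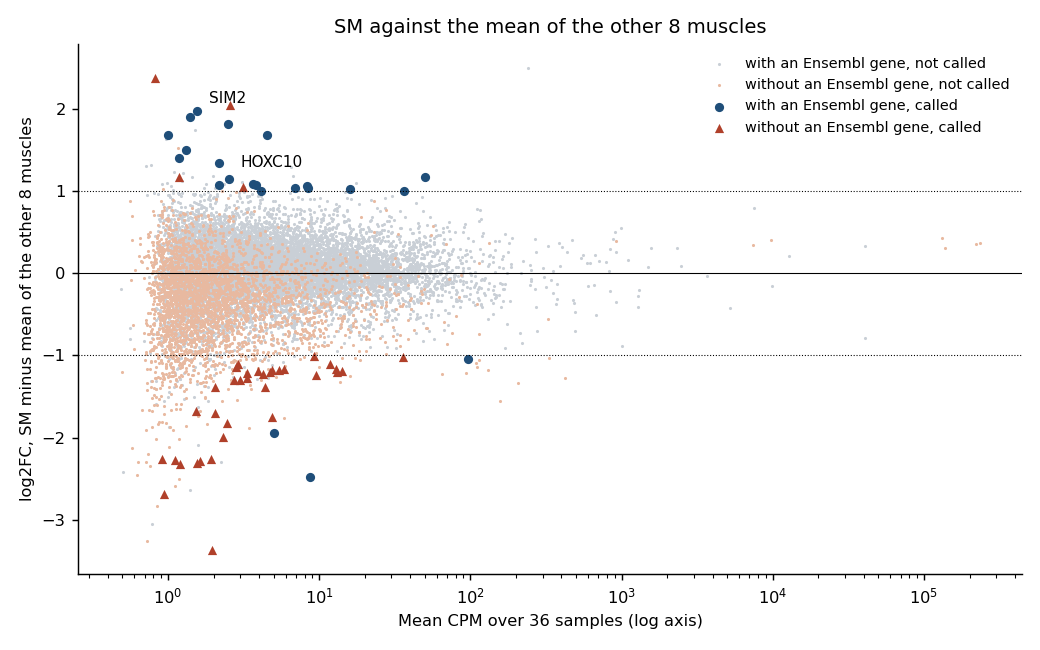
Each point is a locus, placed by its mean CPM over 36 samples (log axis) and its fitted log2FC of SM against the mean of the other 8 muscles. Large blue circles are called loci with an Ensembl gene, red triangles called loci without one, small points the loci not called, and dotted lines mark the fold threshold; the 34 called loci without an Ensembl gene below 0 outnumber the 4 above it.

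The highest-ranked gene with a symbol was SIM2, a transcription factor of the basic helix-loop-helix PAS family, on chromosome 1 from 267018135 to 267070595. It reached 4.43, 1.70, 3.73 and 3.48 CPM in SM1 to SM4, whereas the 32 other libraries ranged from 0 to 6.30 CPM with a median of 0.850. The groups overlapped, and AD, at 4.01 ± 1.74 CPM, had a higher mean than SM. SIM2 was 3.33 ± 1.16 CPM in SM and 1.34 ± 0.518 CPM over the other muscles, and the log2FC was 1.97 (SE 0.17, FDR = 1.4e-05). GM and GB followed at 1.98 ± 0.886 and 1.76 ± 0.806 CPM, and SM did not differ from them by the FDR (0.12 and 0.12) nor from AD (log2FC -0.22, FDR = 0.73). SM exceeded LL, PM, RF, SS and ST, with log2FC from 1.83 to 5.5. ST had a single SIM2 count in its 4 libraries against 61 in SM, a 58.0-fold ratio with an exact 95% counting interval from 10 to 2330. That interval is for pooled counts and leaves out the spread between animals. Fewer cells that express SIM2 and less SIM2 RNA per cell cannot be told apart in whole muscle.

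A locus without an Ensembl gene lies 16.9 kb before SIM2, from 266994223 to 267001200, and also had its highest levels in AD and SM. It had 5.45, 2.55, 5.07 and 5.37 CPM in SM1 to SM4, 6.54 ± 1.63 CPM in AD, and 0 counts in all 4 ST libraries. SM was at least 5.79-fold higher than ST, against the floor of 3 counts per library. The log2FC against all 8 muscles was 2.05 (SE 0.23, FDR = 0.00014), a value that depends on how the 0 of ST is treated. It was 1.40 with ST at that floor. SIM2 itself kept a log2FC of 2.11 (FDR = 0.0012) without SM1 and SM3 and between 1.95 and 2.09 with each animal left out. All of these fits kept ST, whose near absence of SIM2 counts also raises the SIM2 log2FC. When the 8 muscles were treated as 1 group the SIM2 log2FC was 1.31 (FDR = 0.14), and in DESeq2 SIM2 received no adjusted p.

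A pair of Ensembl loci with the same coordinates, chromosome 2 from 28574568 to 28810479, was higher in SM. ENSOARG00000008233 had 58.9, 97.5, 44.0 and 55.8 CPM in SM1 to SM4 against 16.7 to 57.7 CPM (median 33) in the other 32 libraries, and SM was the highest muscle in every animal. Its mean was 64.0 ± 23.2 CPM in SM and 33 ± 4.2 CPM in the others (log2FC 1.00, SE 0.22, FDR = 3.8e-05). ENSOARG00000008249 had 10.8 ± 7.11 CPM in SM, with 21.4 CPM as its highest SM value, again in animal 2 (log2FC 1.67, SE 0.42, FDR = 4.7e-05). The other libraries held 1.02 to 14.4 CPM of it, with the highest value in AD. These loci share coordinates and may share reads, so they are not independent. Without animal 2 the log2FC of the first was 0.74, below the fold threshold, and the second ranged from 1.13 to 1.92 with each animal left out.

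**Figure D2:**
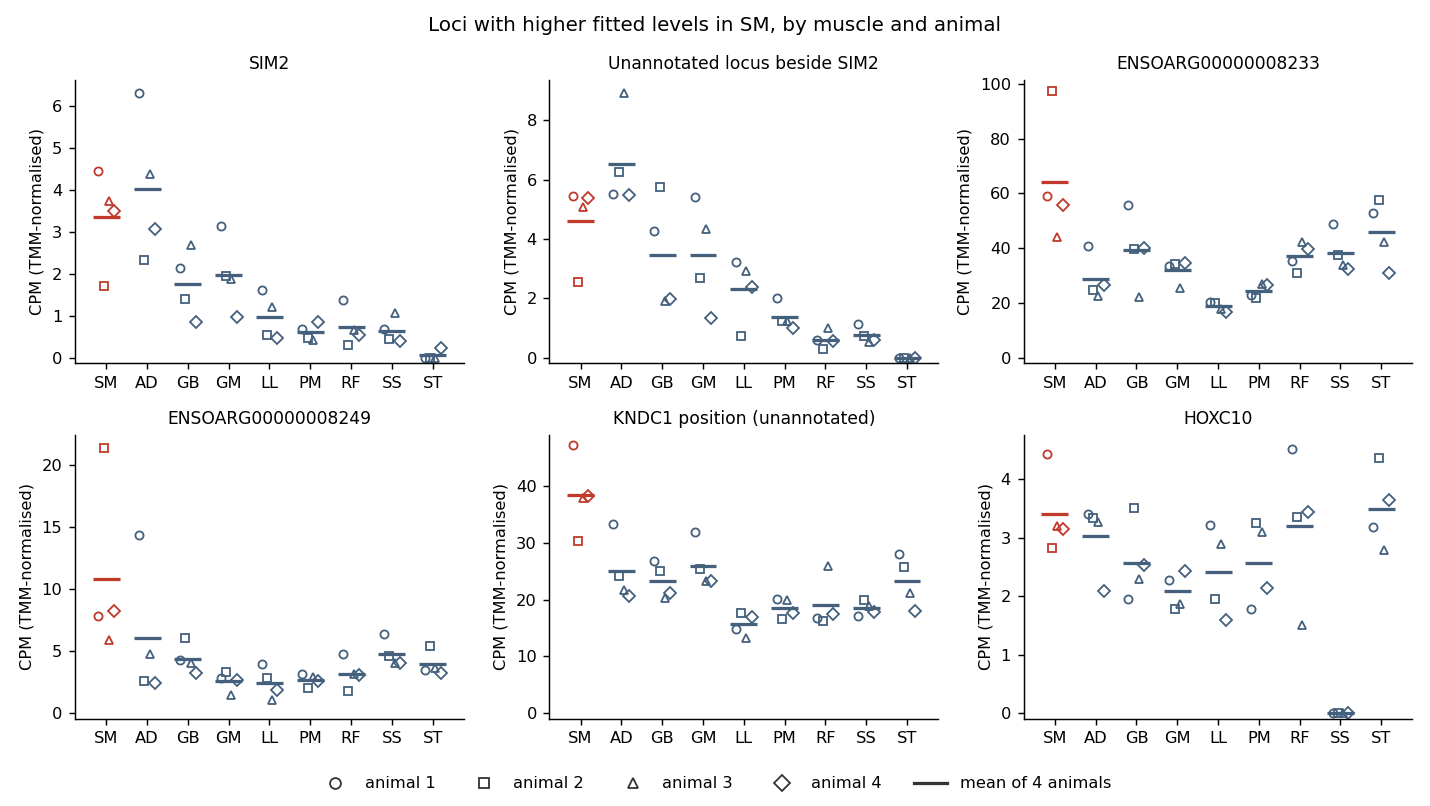
CPM of 6 loci with higher fitted levels in SM, by muscle (SM in red, the other 8 in blue) and animal (symbols), with bars at the mean of 4 animals. SIM2 and its neighbour had their highest means in AD and SM and were near 0 in ST, SM had the highest mean of both chromosome 2 loci and of the KNDC1 position, and HOXC10 was at 0 counts in SS.

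Some genes set SM apart from the other muscles by less than the fold threshold but in every animal. SM was the highest of the 9 muscles in all 4 animals at 87 loci (0.698%) and the lowest at 52 (0.417%), and 81 of the 87 and 21 of the 52 had an Ensembl gene, beside 74.6% of all loci tested. The 8 Ensembl loci of smallest p among the 87 had log2FC from 0.68 to 1.03, and 2 of them passed the fold threshold. A locus on chromosome 10 from 28985548 to 29502617 had 54.5, 44.6, 48.5 and 39.4 CPM in SM1 to SM4, and no other library exceeded 32.0 CPM. The groups did not overlap (46.7 ± 6.38 against 24.8 ± 1.08 CPM, log2FC 0.91, SE 0.12, FDR = 1.4e-05). SM passed the FDR against each of the 8 muscles at this locus, with log2FC from 0.74 against ST to 1.12 against LL, and it was the only locus to do so when no fold was required.

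A locus on chromosome 8 from 82783 to 84915 was also clear of the rest, with 169 to 190 CPM in the 4 SM libraries and at most 164 CPM elsewhere (log2FC 0.76, SE 0.038, FDR = 6.3e-05). On chromosome X from 61479501 to 61483708, SM held 38.5 to 47.0 CPM and the others 16.9 to 34.6 CPM (log2FC 0.70, SE 0.091, FDR = 5.9e-05). The 4 SM libraries were thus separate from the other 32 at all 3 of these loci. Since the 3 were picked from loci highest in SM in every animal, that separation is partly built into the choice. Others overlapped. A locus on chromosome 3 from 68110761 to 68206882 was called, at 15.1 ± 4.96 CPM against 7.65 ± 0.869 CPM (log2FC 1.03, SE 0.18, FDR = 6.3e-05), but 1 other library reached 15.9 CPM while 3 SM libraries were near 12.6. Loci on chromosome 2 from 232491706 to 232496037 (log2FC 0.91), chromosome 3 from 214727161 to 214733306 (0.75) and chromosome 11 from 19771126 to 19774188 (0.68) passed the FDR alone.

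The position that the study's tables give for KNDC1 lies within several loci, and the one with most counts, on chromosome 22 from 50211704 to 50500834, has no Ensembl gene. That locus had 47.3, 30.4, 37.9 and 38.3 CPM in SM1 to SM4 against 13.3 to 33.3 CPM (median 20.2) in the other libraries, and only SM2 lay within the range of the others. It had the smallest p of all loci tested, with 38.5 ± 6.91 CPM in SM and 21.2 ± 1.88 CPM elsewhere (log2FC 0.87, SE 0.12, FDR = 1.4e-05). AD, GB and GM had the closest means, at 23.3 to 26 CPM, and ST was similar, with 28.1, 25.7, 21.1 and 18.0 CPM in ST1 to ST4. LL was lowest at 15.7 CPM. Whether these reads come from KNDC1 cannot be told from the counts.

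Of 81 transcription factors known to mark position or early muscle identity, 4 could be paired and tested, and 2 of the 4 were called higher, SIM2 and HOXC10 (0.185% of all loci were). All 4 are in the study's list for SM against SS, chosen on these libraries, so nothing is read from that count. Their median log2FC was 0.93, or 0.63 with HOXC10 at its bound. HOXC10, a HOX gene of the lower trunk and hindlimb, on chromosome 3 from 132378062 to 132383225, had 4.43, 2.83, 3.20 and 3.16 CPM in SM1 to SM4. It had 0 counts in all 4 SS libraries, the only forelimb muscle, where the floor is 0.435 to 0.686 CPM. SM was therefore at least 4.96-fold higher than SS, against the floor of 3 counts per library. Every other muscle was between 2.09 and 3.50 CPM, and ST was at 3.50 ± 0.668, slightly above SM. The call against all 8 muscles (log2FC 1.14, SE 0.13, FDR = 0.0044) rested on SS, and without SS the log2FC was 0.27 (FDR = 0.52). With any animal left out HOXC10 was not called, although its log2FC stayed between 1.06 and 1.29.

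HOXD8, another HOX gene, on chromosome 2 from 132873609 to 132877353, averaged 8.88 ± 3.32 CPM across the SM libraries and was not called (log2FC 0.72, SE 0.19, FDR = 0.02). It was low in both RF (1.42 CPM) and SS (0.603 CPM), while SM lay among the other 6 muscles at 7.39 to 14.0 CPM. EYA1, a transcriptional co-activator of muscle development, had 0, 0.991, 0.533 and 1.11 CPM in SM1 to SM4 and 2.2 ± 0.594 CPM in the other muscles (log2FC -1.25, SE 0.27, FDR = 0.034). It exceeded SM in RF (log2FC -2.62, FDR = 0.00016) and SS (log2FC -2.64, FDR = 5.7e-05), and LL was lower still at 0.383 CPM.

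Among the genes that the study named for SM against SS, 17 could be paired. They were chosen by the study on these same libraries, so their direction is no independent evidence. Of the 17, 2 were called higher, none lower, and their median log2FC was -0.41 with 8 above and 9 below 0. CHI3L1, a secreted glycoprotein of the chitinase family, on a locus of chromosome 12 from 344371 to 366834 that joins several Ensembl genes, had 80.7, 28.6, 99.4 and 70.0 CPM in SM1 to SM4. Its log2FC was 0.93 (SE 0.20, FDR = 0.0044), and it was 0.50 (FDR = 0.16) without SS, where it was at 4.72 CPM. LL had a similar level, at 72.9 CPM. ZFP36L1, an RNA-binding protein that speeds the decay of AU-rich messages, had the highest mean in SM, 18.4 ± 4.00 CPM against 13.2 ± 2.71 CPM (log2FC 0.49, SE 0.049, FDR = 0.0028).

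The second of the loci at the MYL6 position, chromosome 3 from 163076924 to 163101778, was called higher, although SM was not the highest muscle. It had 16.3, 7.78, 41.9 and 13 CPM in SM1 to SM4 and 71.9 CPM in SS, with 4.4 to 17.1 CPM in the others (log2FC 1.02, SE 0.40, FDR = 0.0049). The difference was negative in animal 2 (-0.13), and the log2FC was 0.59 (FDR = 0.36) without SM1 and SM3. The first locus at this position did not differ beyond its spread, at 31.0 ± 4.69 CPM in SM and 30.5 ± 2.72 CPM elsewhere (log2FC 0.03, FDR = 0.92). Which of them is MYL6, an essential myosin light chain, is not stated in the files.

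Among loci called higher, the one with an Ensembl gene and the highest SM level, on chromosome 1 from 198618107 to 198631249, was not highest in SM. It had 71.2 ± 20.1 CPM in SM, 151 CPM in ST and 8.43 CPM in AD, with the remaining muscles between 14.9 and 62.9 CPM (log2FC 1.17, SE 0.30, FDR = 0.0094). Over all 23 loci called higher, the log2FC ranged from 1.00 to 2.37 with a median of 1.17, and the mean SM level from 1.84 to 71.2 CPM with a median of 5.47.

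Among loci lower in SM, the most abundant with a candidate name was the MYBPC1 position, ENSOARG00000015112, on chromosome 3 from 170450235 to 170553298. MYBPC1 encodes slow myosin-binding protein C, a thick-filament protein. SM1 to SM4 had 428, 494, 654 and 657 CPM, and the other libraries 431 to 1800 CPM with a median of 1070. SM had the lowest mean, 558 ± 115 against 1060 ± 137 CPM (log2FC -0.89, SE 0.055, FDR = 0.00029), below the fold threshold. Each animal gave a similar difference, from -1.01 to -0.78. SM was close to LL at 677 ± 223 CPM (log2FC -0.27, FDR = 0.42), and against PM, RF, SS and ST the log2FC lay between -1.43 and -1.0. A locus without an Ensembl gene at the same coordinates was called lower, with 5.79, 25.8, 13.9 and 27.7 CPM in SM1 to SM4 and 37.9 ± 10.3 CPM elsewhere (log2FC -1.03, SE 0.35, FDR = 0.00052). In contrast to the first locus, its difference varied from -2.13 in animal 1 to -0.53 in animal 2.

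On chromosome 20, ENSOARG00000002495 (49693089 to 49762526) was called lower, with 1.10 ± 0.546 CPM in SM and 0.425 to 1.70 CPM in its libraries. ST had 31.9 ± 27.1, RF 16.2 ± 7.29 and SS 11.7 ± 5.31 CPM, whereas LL, at 1.25 ± 0.596 CPM, was close to SM (log2FC -2.48 against all 8, SE 0.093, FDR = 0.00059). SM1 to SM4 had only 5, 3, 5 and 6 counts of ENSOARG00000002495, so this SE understates the counting error. A locus without an Ensembl gene begins 79 bases after that gene, with its highest level in ST and its lowest in SM. The study assigns this position to MYLK4 and lists it for SM against SS, a choice made on these same libraries. This second locus gave 2 counts in all 4 SM libraries against 380 in the other 32, a 20.6-fold ratio with an exact 95% counting interval from 5.68 to 171. That ratio pools the counts, and its interval leaves out the spread between animals and muscles. The fitted log2FC of the second locus against the 8 muscles was -3.37. Both loci were at or near the floor in SM, where counting error is large. The other called loci with an Ensembl gene lay on chromosome 18 from 16183925 to 16783606 (1.12 ± 0.318 CPM in SM, up to 14.0 CPM in ST, log2FC -1.95, FDR = 0.0043) and chromosome 13 from 54042503 to 54058001 (46.6 ± 5.68 CPM in SM, 67.6 to 139 CPM in the other muscles, log2FC -1.04, FDR = 0.0044).

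MAST2, TACC2 and CLIP4, whose proteins bind or act on microtubules, passed the FDR but not the fold threshold. MAST2, a microtubule-associated kinase, had 14.6, 6.51, 15.2 and 12 CPM in SM1 to SM4 and 22.8 ± 5.05 CPM elsewhere (log2FC -0.90, SE 0.12, FDR = 0.0014). TACC2, a coiled-coil protein of the centrosome and microtubules, had 34.4 ± 9.30 against 60.4 ± 8.02 CPM (log2FC -0.80, SE 0.14, FDR = 0.0014). CLIP4, of the CAP-Gly linker family, had 8.29 ± 1.37 against 13.8 ± 1.15 CPM (log2FC -0.70, SE 0.14, FDR = 0.0025). All 3 had the lowest mean in SM, were lower in all 4 animals and overlapped with the other libraries. LL was closest to SM for each, at 13.8, 45.6 and 8.53 CPM, and SM differed most from SS, with log2FC from -1.40 to -1.26. They belong to the study's list for SM against SS, so these differences from SS were the reason for their choice.

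**Figure D3:**
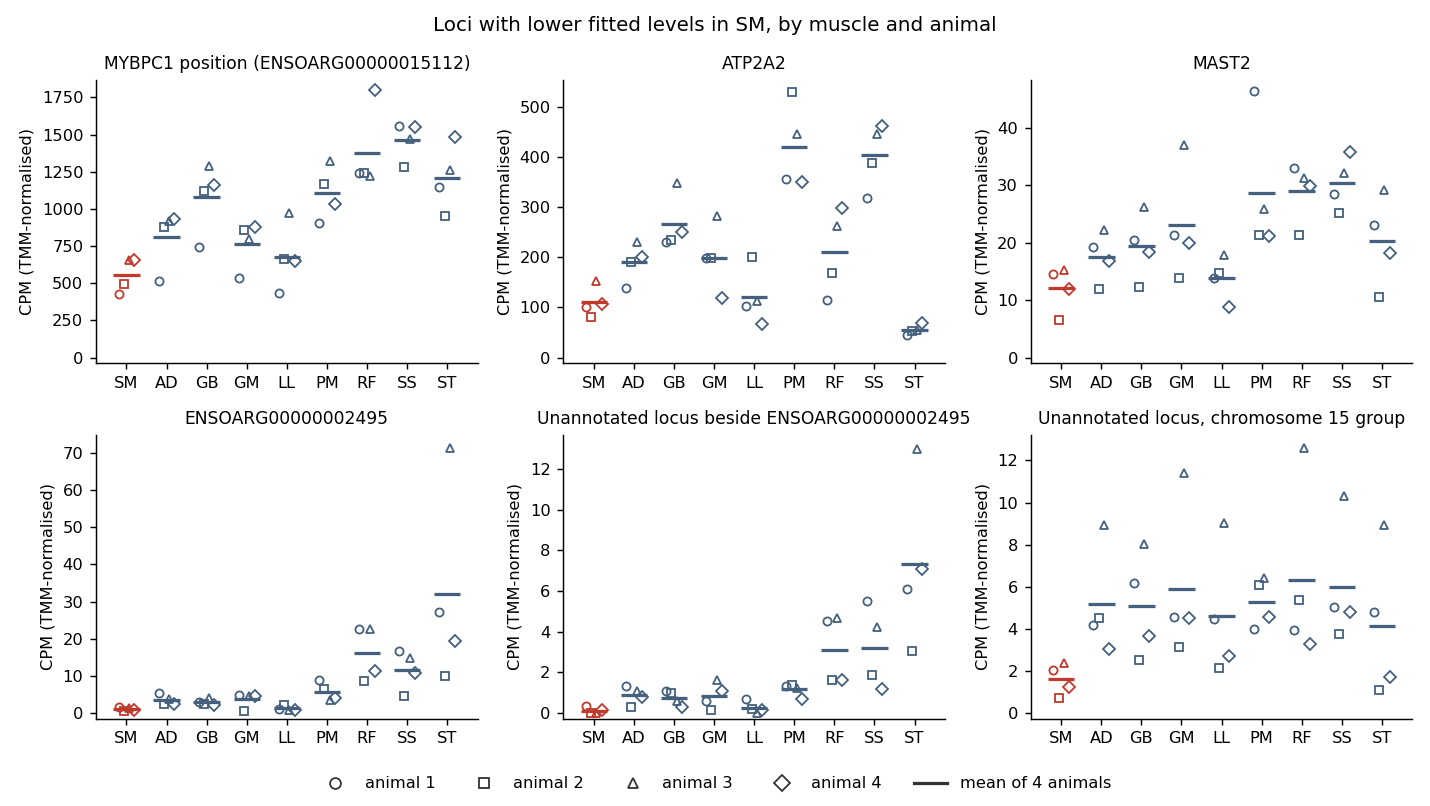
CPM of 6 loci with lower fitted levels in SM, by muscle (SM in red, the other 8 in blue) and animal (symbols), with bars at the mean of 4 animals. LL was next to SM at the MYBPC1 position, MAST2 and ENSOARG00000002495, ST was below SM for ATP2A2, and the chromosome 15 locus had its lowest mean in SM.

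The most abundant locus among those lowest in SM in every animal was on chromosome 2 from 130196200 to 130477140. SM1 to SM4 had 26700, 20400, 23700 and 26400 CPM, and no other library was below 30000 CPM, so that the groups did not overlap (24300 ± 2920 against 42500 ± 3640 CPM, log2FC -0.79, SE 0.10, FDR = 0.0049). RF was highest at 56200 CPM. Since this locus was picked from those lowest in SM in every animal, the separation is partly built into the choice. The 8 Ensembl loci of smallest p among those lowest in every animal had log2FC from -1.06 to -0.47, 6 passed the FDR, and none passed the fold threshold as well. A locus of this level takes a share of the library that itself varies with the 4 dominant loci, and the part of those loci in its difference was not tested.

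Most loci called lower had few counts and no Ensembl gene. The mean SM level was below 1.02 CPM, the highest floor of an SM library, at 13 of the 37, against 0 of the 23 called higher. The 34 loci without an Ensembl gene fell into 21 regions separated by more than 500 kb, a grouping made after their values were seen, and 19 of the 34 lay in 6 regions with several called loci. Loci of 1 region may belong to 1 transcript and are not independent. On chromosome 15 from 24056993 to 24247780, 6 loci were called, and 35 of 35 tested loci without an Ensembl gene had a log2FC below 0, with a median of -1.0. Of all 3168 tested loci without an Ensembl gene, 76.2% were below 0 (median -0.30). The regions were drawn around loci called lower, so negative values in them are partly built into the choice. The chromosome 15 locus of smallest p had 2.04, 0.708, 2.40 and 1.26 CPM in SM1 to SM4 against 1.09 to 12.6 CPM (median 4.53) in the others (log2FC -1.75, SE 0.19, FDR = 0.00029). It was called lower than 6 of the 8 muscles and missed the FDR for GB (0.012) and ST (0.038).

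The other regions had negative medians of differing size. They too were drawn around called loci, and their counts stand beside the 76.2% of all loci without an Ensembl gene that were below 0. On chromosome 25 from 33112160 to 33251513, 5 loci were called and 20 of 20 were below 0 (median -1.10). On chromosome 24 from 6246737 to 6557126, 2 were called and 28 of 28 were below 0 (median -0.95), and on chromosome 7 from 46242796 to 46352952, 2 were called and 15 of 15 were below 0 (median -0.86). The medians were smaller on chromosome 9 from 1213867 to 1256305, with 2 called and 11 of 11 below 0 (median -0.60), and on chromosome 8 from 60871563 to 61232113, with 1 called and 25 of 27 below 0 (median -0.47, and 0.11 in animal 2). On chromosome 3 from 177453974 to 177476812, the called locus of smaller p had 3.06 to 5.60 CPM in SM and 4.08 to 31.3 CPM elsewhere (log2FC -1.24, SE 0.19, FDR = 0.00053). A single locus on chromosome 2 from 220339844 to 220346024 had 3.74, 7.78, 5.07 and 7.11 CPM in SM1 to SM4 and 14.0 ± 3.89 CPM elsewhere, with the most even difference of any named locus, from -1.20 to -1.04 across animals (log2FC -1.20, SE 0.033, FDR = 0.00038). The study lists this locus, without a gene name, for SM against SS. Its list also holds transcripts within the chromosome 7 region, which it assigns to RORA. That list was chosen on these same libraries.

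Loci without an Ensembl gene had mostly negative log2FC as a class. Of 3168 such loci, 76.2% had a log2FC below 0 (median -0.30), against 41.1% of 9293 loci with an Ensembl gene (median 0.06). The median of the class was -0.53, 0.07, -0.52 and -0.31 in animals 1 to 4. It was lowest in SM1 and SM3, the libraries with the lowest TMM factors. Among the other muscles only ST had class medians of -0.22 or lower, in 3 of its 4 animals. The median was similar inside Ensembl loci (1073 loci, median -0.32) and between them (2091 loci, median -0.29), whereas the 4 dominant loci were higher (median 0.36). In animal 2, where the class median was 0.07, the 6 regions with several called loci had medians of differing size. These were -0.78 on chromosome 15, -0.73 on chromosome 24 and -0.81 on chromosome 3 from 177453974. Chromosomes 25, 9 and 7 had smaller ones, at -0.44, -0.27 and -0.23. The part of the class difference in the lower calls was not tested. When only loci with an Ensembl gene were kept in the counts, 15 loci were called higher and 8 lower.

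**Figure D4:**
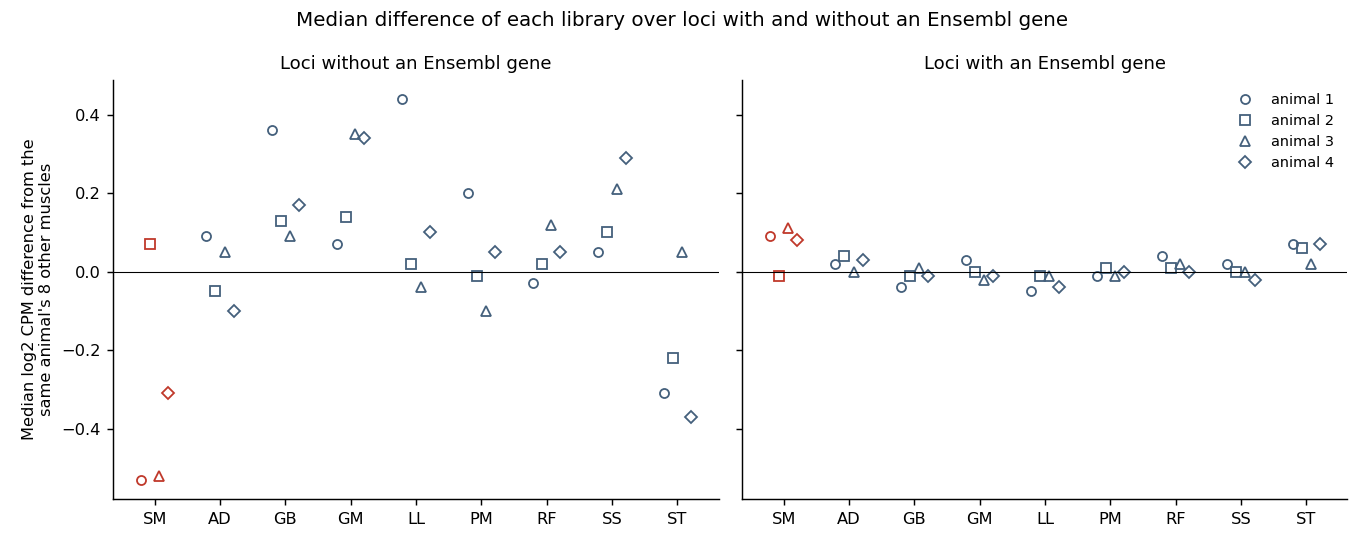
Each point is a library, placed by the median over loci of its log2 CPM minus the mean of the same animal's 8 other muscles, for loci without an Ensembl gene (left, 4 dominant loci left out) and with one (right). SM1, SM3 and SM4 lie at -0.53, -0.52 and -0.31 on the left and SM2 at 0.07, while all libraries stay between -0.05 and 0.11 on the right.

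Of 21 genes of the slow contractile and calcium machinery, 9 could be paired and tested, and none was called. Their median log2FC was -0.12, with 2 above and 7 below 0. ATP2A2, the calcium pump of slow and cardiac muscle, on chromosome 17 from 53803321 to 53860163, passed the FDR but not the fold threshold. It had 100, 81.2, 153 and 107 CPM in SM1 to SM4 and 234 ± 35.7 CPM elsewhere (log2FC -0.85, SE 0.17, FDR = 0.0073). PM and SS were far higher at 421 and 404 CPM, LL was similar at 121 CPM, and ST was lower at 55.8 CPM. MYOM3, a protein of the M-band, had 9.35 ± 5.70 against 17.2 ± 4.29 CPM (log2FC -0.70, SE 0.37, FDR = 0.15).

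The remaining slow genes differed between animals more than SM differed from the other muscles. TNNT1 had 114, 44.3, 151 and 104 CPM in SM1 to SM4 (log2FC -0.12, SE 0.38, FDR = 0.82), and TNNC1 138, 60.9, 170 and 100 CPM (log2FC -0.12, SE 0.36, FDR = 0.81). TNNI1 had 17.0, 7.64, 31.2 and 16.9 CPM (log2FC -0.57, SE 0.37, FDR = 0.23). SM2 was the lowest SM library for each of these troponins. The slow light chain MYL3 (log2FC -0.09, FDR = 0.86), the slow tropomyosin TPM3 (-0.28, FDR = 0.41), the slow Z-disc protein MYOZ2 (0.43, FDR = 0.16) and the cardiac and slow calsequestrin CASQ2 (0.03, FDR = 0.97) were not called either. In animal 2 all 9 genes were below the mean of its other muscles, with a median difference of -1.13, while the medians were 0.10, 0.14 and -0.27 in animals 1, 3 and 4.

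Averaged over the 9 genes, SM lay between GM and RF, at a mean log2 CPM of 5.0 ± 0.65. PM and SS were highest at 6.55 ± 0.12 and 6.39 ± 0.39, followed by GB (5.90 ± 0.25), AD (5.47 ± 0.24) and GM (5.33 ± 0.43). RF (4.87 ± 0.51) and LL (4.58 ± 0.58) came after SM, and ST was lowest at 3.06 ± 0.46. SM had the widest spread, from 4.12 in SM2 to 5.66 in SM3, which overlapped with the libraries of GB, AD, GM, RF and LL but not with those of PM (lowest 6.42), SS (lowest 6.04) or ST (highest 3.47). SM had rank 6 of the 9 muscles in animals 1, 3 and 4 and rank 8 in animal 2. These values describe 9 chosen genes and carry no test. All 9 are in the study's table for ST against SS, chosen on these same libraries, and each was higher in SS there. The order of SS and ST is therefore set by that choice, and the place of SM between them is no independent evidence.

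**Figure D5:**
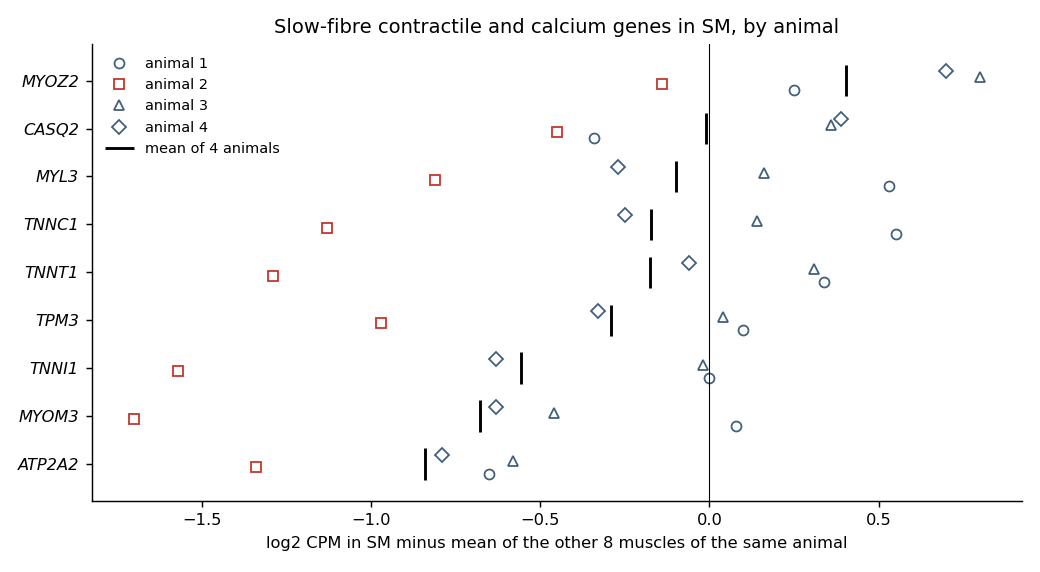
Each symbol is the log2 CPM of a slow-fibre gene in SM minus the mean of the other 8 muscles of the same animal (animal 2 in red), with a bar at the mean of 4 animals. Animal 2 was below 0 for all 9 genes, and the bars lie between -0.84 for ATP2A2 and 0.40 for MYOZ2.

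Of 23 fast contractile genes 1 could be paired, and 1 of 49 of glycolysis and glycogen. PVALB, the calcium buffer of fast fibres, had 0.34, 0, 0.267 and 0 CPM in SM1 to SM4, below the floor, and 0 counts in AD. It was also low in LL and PM, and it reached 7.29 CPM in RF, 5.68 in ST and 5.63 in SS, each above SM (FDR = 9.9e-06, 1.8e-05 and 7.9e-05). Against the mean of all 8 it was not called, and its fitted log2FC of -2.29 depends on how the 0 of AD is treated. PPP1R3D, which targets a phosphatase to glycogen, had 7.25 ± 1.92 against 5.63 ± 0.944 CPM and was not called (log2FC 0.41, SE 0.14, FDR = 0.13), and it was higher only than SS (log2FC 1.61, FDR = 0.00012) by both thresholds. KCNMA1, a calcium-activated potassium channel, was not called (log2FC -0.41, FDR = 0.035). METTL21C and SMYD2, both lysine methyltransferases, gave -0.41 (FDR = 0.71) and 0.39 (FDR = 0.042), and RIMS2, a protein of vesicle release, 0.49 (FDR = 0.26).

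Taken muscle by muscle, SM had the fewest called loci against GB, 12 (0.0963%), 11 of them lower in SM. Next came AD with 52 (0.417%), GM with 73 (0.586%), ST with 89 (0.714%), RF with 107 (0.859%), LL with 128 (1.03%) and PM with 133 (1.07%). The comparison with SS gave the most, 363 (2.91%), of which 62 were higher in SM. These comparisons share the SM libraries. The median absolute log2 difference between SM and another muscle of the same animal was 0.392 ± 0.103 for GB and 0.462 ± 0.0803 for LL, the lowest and highest of the 8 means. Single animals ranged from 0.315 to 0.537 for GB, a range that holds the means of all other muscles. By this distance GB was therefore not set apart. SS, with the most calls, came after LL in this distance. No locus was called the same way against all 8 muscles, and 147 had the same sign and an unadjusted p under 0.05 in all 8 (87 higher and 60 lower). The largest number was 6 muscles for a locus lower in SM and 5 for one higher. DESeq2 and edgeR's likelihood ratio test also called 0 loci against all 8. In the same contrast, the other muscles against their own 8 gave 7 calls each for AD and GB (0.0562%), 20 each for GM and RF (0.161%), 44 for PM (0.353%), 68 for LL (0.546%), 179 for ST (1.44%) and 188 for SS (1.51%), so only SS, ST and LL gave more calls than the 60 of SM.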

How the data were processed

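RNA-Seq counts of 36 libraries were used, 9 muscles of 4 animals. The authors aligned paired reads to Oar_v3.1 with TopHat2 (2.0.13), assembled loci with Cufflinks (2.2.1) and counted reads per locus with HTSeq. Their deposited values are raw counts. Each locus was used once, which left 31136 of 31530 entries.

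With R 4.3.3 and edgeR 4.0.16, loci were filtered by filterByExpr, library sizes were scaled by TMM, and all 36 libraries entered 1 negative binomial fit with terms for muscle and for animal. SM minus the mean of the 8 other muscles was tested with the quasi-likelihood test and Benjamini-Hochberg adjustment. Differences in log2 CPM used a prior count of 2. Every muscle came from the same 4 animals, which pairs the libraries by animal number, and SM libraries deviated together with others of their animal (mean correlation 0.24, 32 pairs). The 6 pairs of SM libraries differed beyond sampling noise. The procedure was tested on simulated data. No genome sequence was given, and no sequence is shown.

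The rule for named loci took called loci with symbols (2 met it), members of gene lists, 5 called loci without an Ensembl gene, 8 Ensembl loci each highest or lowest in SM in every animal, and genes the study named for SM against SS. Other called loci were named after their values were seen. Members and lists were chosen with earlier results of these data known. Starts are 1-based. Loci on unplaced scaffolds are not described. The likelihood ratio test, DESeq2 1.42.0, other scalings, filters and thresholds, and left-out animals and muscles were the alternatives.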

Additional observations from a re-analysis of the deposited data

Results flagged for a closer look

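Of 39 loci chosen by the naming rule, 3 had 1 animal far from the other 3 in the difference between SM and the mean of its other muscles (the gap to the nearest animal, divided by the range, was above Dixon's 95% critical value). Chance flags about 1 in 20 groups of 4. The locus on chromosome X from 61479501 to 61483708 had a difference of 0.97 in animal 1 and 0.60, 0.65 and 0.59 in animals 2 to 4. A locus on chromosome 21 from 24142840 to 24429529, lowest in SM in every animal (log2FC -1.06, FDR = 0.011), had -1.74 in animal 1 and -0.76, -0.88 and -0.84 in the others. PPP1R3D had 0.01 in animal 2 and 0.58, 0.55 and 0.51 in animals 1, 3 and 4.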

How the results depend on the processing

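Each of the 60 called loci (23 higher, 37 lower) kept the sign of its log2FC in every alternative that tested it. They were chosen on these same libraries, so their signs are no independent evidence, and many calls were lost. Leaving out animals 1 to 4 in turn kept only 25, 16, 21 and 16 of the 60. It gave 39, 42, 30 and 20 calls in all, of which 28, 14, 25 and 11 were higher and 11, 28, 5 and 9 lower. Without the animal block, with no replicate pairing, 17 loci were called (14 higher, 3 lower), all among the 60. The count was 112 (30 higher and 82 lower) with the likelihood ratio test, which kept 59 of the 60. DESeq2 gave 54 (10 and 44) and kept 35. It was 166 (38 and 128) at an FDR of 0.05 and 280 (193 and 87) without a fold threshold. Without a filter it was 179 (50 and 129), and the median log2FC moved to -0.131. With at least 10 counts in every sample it was 12 (3 and 9), of which 10 were among the 60. Leaving out ST gave 107 (40 and 67), RF 49 (25 and 24), SS 40 (24 and 16) and PM 58 (15 and 43). Of alternatives chosen after seeing the data, the 8 muscles as 1 group gave 10 (2 and 8), only loci with an Ensembl gene 23 (15 and 8), and leaving out SM1 and SM3 37 (35 and 2). The share of higher calls, 38.3%, ranged from 18.5% with DESeq2 to 94.6% without SM1 and SM3. The number called against all 8 muscles was 0, and became 1 at an FDR of 0.05 or without ST (the chromosome 15 locus of smallest p), 1 without a fold threshold (the chromosome 10 locus) and 2 without a filter (the chromosome 15 locus and ENSOARG00000008249). The cause of these moves was not tested, apart from the fewer or more loci and samples that they use. SIM2 was called in 21 of 23 alternatives and HOXC10 in 16 of 23. Of the loci tested, 9 had a muscle with 0 counts, and 3 of these were called, so their fitted log2FC depends on the prior count. Only 1009232 to 1715239 counts per SM library were informative, which limits loci near 1 CPM.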

Other observations

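Among loci above 100 CPM on average, 9 had an absolute log2FC above 1 and were not called, a set chosen after their values were seen. The one with an Ensembl gene, 164 bases on chromosome 11 from 9182706 to 9182869, had 0.34, 215, 1030 and 850 CPM in SM1 to SM4 (log2FC 2.49, FDR = 0.28). In the other 32 libraries it was below 1 CPM in 13 and above 100 CPM in 13, with a highest value of 1080 CPM. A locus without an Ensembl gene on chromosome 15 from 17226738 to 17264088 had 3.4, 3.11, 1.6 and 5.69 CPM in SM1 to SM4 and a median of 3.76 CPM in the other 32 libraries, of which 1 was above 100 CPM, at 3830 CPM (log2FC -1.15, FDR = 0.56).

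The other 7 had no Ensembl gene and a log2FC below 0 that did not pass the FDR. On chromosome 2 from 111819001 to 111820062, SM1 to SM4 had 15.7, 24.1, 68.8 and 191 CPM against 0.197 to 1170 CPM (median 78.4) elsewhere, and on chromosome 11 from 16713 to 17357 they had 7.49, 19.0, 48.0 and 165 CPM against 0.197 to 688 CPM (median 51.0). On chromosome 20 from 49974308 to 49974542 the values were 7.49, 15.7, 55.7 and 101 CPM against 0.197 to 769 CPM (median 40.5). At all 3 SM1 was the lowest SM library and SM4 the highest.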
